A study of Mus musculus with 15 samples.

Results

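The peripheral major urinary protein genes of the mouse are Mup4, Mup6, Mup5, Mup20, Mup3 and Mup21, named here in their order along chromosome 4. They were chosen by name as the Mup genes at the more divergent parts of the gene cluster, and they make up 6 of the 22 numbered Mup genes and 6 of 21887 protein-coding genes in the gene table used. Mup4 and Mup6 stand at the left edge of the cluster (59956804 to 59960667 and 60003481 to 60007274, GRCm38.p6). Mup5, Mup20, Mup3 and Mup21 stand at the right edge (61831319 to 61858043, 62011337 to 62054143, 62083476 to 62087317 and 62147832 to 62150841). The other 16 numbered genes, called central here, lie between Mup6 and Mup5, and the whole cluster spans 2.19 Mb.

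ChIP-seq of H3K4me3, H3K27me3 and H3K9me3 was done on liver from C57Bl/6 mice of 8 to 12 weeks that were fed a normal diet and killed in the morning hours. Both wild type (WT) and Uhrf1hepKO (KO) mice were used. The latter name stands for loss of Uhrf1, a guide of maintenance DNA methylation, from hepatocytes, and the labels give neither the Cre driver nor the sex of the mice. H3K4me3 was measured at baseline in 2 WT and 2 KO libraries, of which replicate 2 of each genotype is labelled round 2. H3K9me3 was measured at baseline in 1 WT and 1 KO library, both labelled round 2. H3K27me3 was measured in 1 WT (replicate 1) and 1 KO baseline library, which carry no round. It was also measured in WT liver at 0, 30, 40 and 96 h of regeneration, with 1 library each, all labelled round 3. The 0 h library is a second set of unregenerated WT liver. The labels do not say how regeneration was started, nor whether libraries came from separate animals. All values come from regions called by the authors in each library, so a call says that a region passed their threshold there. In whole liver, fewer cells with a mark and less mark per cell cannot be told apart.

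Major urinary proteins are small lipocalins. Hepatocytes secrete them, the kidney passes them into urine, and they bind and slowly release volatile signals used in scent marking. Output of the liver genes is strongly male-biased and depends on pulses of growth hormone acting through Stat5b. Mup20 encodes darcin, the male pheromone that females learn from, whereas Mup4 and Mup5 are known mainly from exocrine glands of the head. H3K4me3 marks the starts of active and poised genes, H3K27me3 is laid down by Polycomb repressive complexes, and H3K9me3 is typical of heterochromatin.

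Promoter sequences from RefSeq (GRCm38.p6, 250 bases before the start to 50 after it) were matched for 4 of the 6 genes and for 10 of the 16 central genes. They are shown because the 4 genes form 2 pairs that differ in their marks, Mup4 with Mup6 and Mup3 with Mup21. Capitals mark TATAAA and TATATAA, which overlap, and each sequence reads 5′ to 3′ on its own strand.
Mup4, chr4:59960618-59960917 (− strand): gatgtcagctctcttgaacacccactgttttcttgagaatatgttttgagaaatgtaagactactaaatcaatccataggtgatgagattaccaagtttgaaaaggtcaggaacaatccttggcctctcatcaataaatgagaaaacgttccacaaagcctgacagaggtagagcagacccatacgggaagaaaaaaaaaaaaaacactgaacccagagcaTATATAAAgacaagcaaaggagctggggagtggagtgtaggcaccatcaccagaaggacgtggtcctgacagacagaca
Mup6, chr4:60003231-60003530 (+ strand): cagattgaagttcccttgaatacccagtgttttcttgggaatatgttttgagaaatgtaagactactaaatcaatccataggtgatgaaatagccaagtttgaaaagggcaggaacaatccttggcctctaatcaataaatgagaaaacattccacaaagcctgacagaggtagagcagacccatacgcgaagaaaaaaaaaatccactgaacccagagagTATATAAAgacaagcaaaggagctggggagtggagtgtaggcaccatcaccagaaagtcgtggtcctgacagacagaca
Mup3, chr4:62087268-62087567 (− strand): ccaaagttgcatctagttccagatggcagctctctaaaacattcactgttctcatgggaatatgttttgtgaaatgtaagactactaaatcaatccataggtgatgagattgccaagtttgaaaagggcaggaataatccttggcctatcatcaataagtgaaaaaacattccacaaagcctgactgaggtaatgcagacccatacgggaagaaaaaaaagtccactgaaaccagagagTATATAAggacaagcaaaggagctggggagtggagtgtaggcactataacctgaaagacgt
Mup21, chr4:62150792-62151091 (− strand): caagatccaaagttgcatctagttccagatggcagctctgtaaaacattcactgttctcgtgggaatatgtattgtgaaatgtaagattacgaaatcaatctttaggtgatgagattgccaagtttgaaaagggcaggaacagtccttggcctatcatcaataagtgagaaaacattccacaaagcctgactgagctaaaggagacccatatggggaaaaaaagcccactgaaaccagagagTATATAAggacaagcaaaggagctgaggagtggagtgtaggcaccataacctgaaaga
Each of the 4 promoters was closest to its partner. Mup4 and Mup6 were 92.3% identical and shared at most 55 bases without a mismatch, and Mup3 and Mup21 were 92.9% identical and shared at most 42. Identity of the 4 with central promoters ran from 73.7% to 88.6% (median 81.0%). Central promoters were 89.9% to 99.0% identical to each other (median 96.5%). Identity was counted over aligned columns only, which ran from 163 to 303 among all pairs. The value of 88.6%, between Mup6 and Mup7, rests on 201 columns. The longest stretch that any of the 4 shared with a central promoter was 56 bases, between Mup6 and each of Mup9, Mup11, Mup15, Mup17 and Mup19, against up to 275 bases among central promoters. Reads from stretches that copies share cannot be assigned to 1 copy, and how the authors treated reads that fit several copies is not given in the sources used here.

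TATAAA was found, searching both strands, in the Mup4 and Mup6 promoters, in neither of Mup3 and Mup21, and in 0 of 10 central promoters. It occurred in 13.3% of all 17492 promoters of the same length. TATATAA, searched after these sequences had been seen, was present in all 4 and in 9 of 10 central promoters, against 3.38% of all promoters. The Stat motif TTCNNNGAA was in none of the 4 and 0 of 10 central promoters, against 7.83% of all. The 4 promoters were poor in CG dinucleotides, with 3 in Mup4 and Mup6 and 2 in Mup3 and Mup21, where the median promoter had 13. Of all promoters, 19.2% had 2 or fewer. Their G and C content was 42.3%, 42.0%, 41.0% and 42.0% in the order printed, and the median of all promoters was 56.3%. These matches describe letters in the window and name no bound factor.

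**Figure D1:**
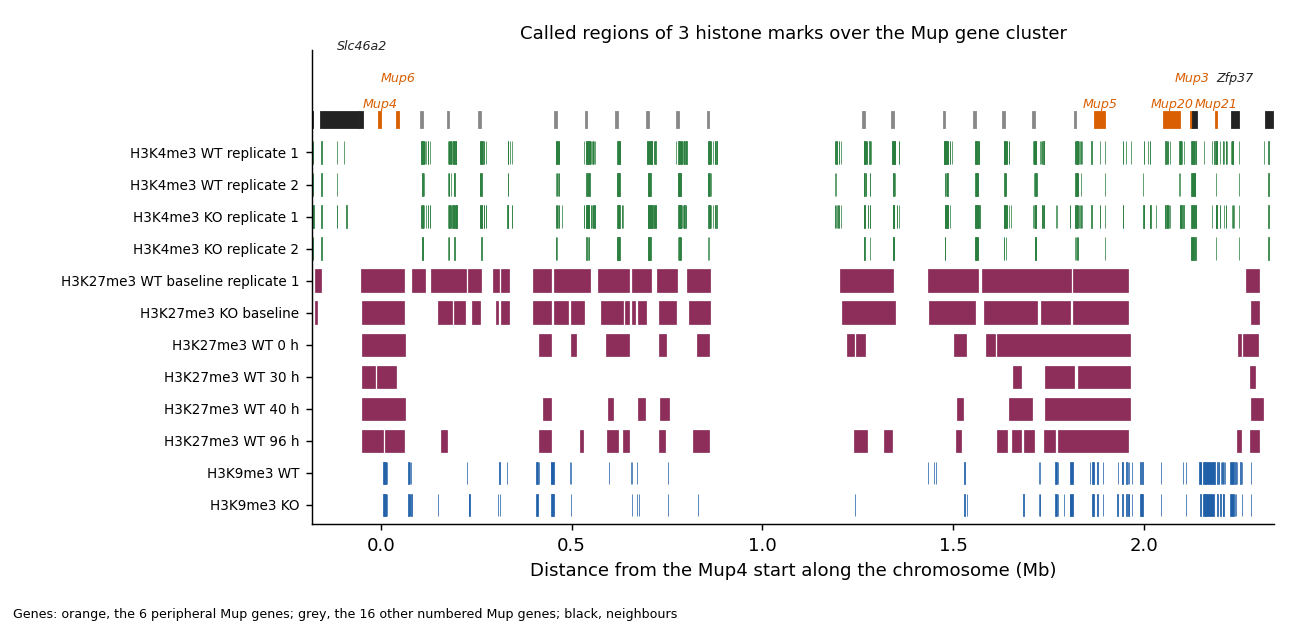
Called regions in the 12 ChIP libraries (rows) along the Mup cluster, by distance from the Mup4 start in Mb, with genes drawn on top. Mup4 and Mup6 lie in H3K27me3 islands without H3K4me3, except that Mup6 lies outside at 30 h. Mup5 lies in an island at the other side. Mup20, Mup3 and Mup21 lie in a stretch with no island in any of the 6 lists.

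The marks divided the 6 genes into 3 settings. Mup4 and Mup6 had H3K27me3 (Mup6 not at 30 h) and no H3K4me3. Mup5 had both marks in every library. Mup20, Mup3 and Mup21 had H3K4me3 in some or all libraries and no H3K27me3. A gene counted as marked when a region reached to within 1 kb of its start. The start was annotated for 4 of the 6 genes. For Mup5 and Mup20 it was taken as the gene end with more H3K4me3, so the nearness of their peaks to that end is partly fixed by the choice.

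H3K4me3 was called at the start of 4 of the 6 genes in WT replicate 1, where 63.3% of all protein-coding genes were marked. The count was 3 in WT replicate 2 (56.8% of all genes), 4 in KO replicate 1 (62.4%) and 2 in KO replicate 2 (59.5%). Central genes were marked in 16, 16, 16 and 14 of 16 cases in the same order. In the 4 libraries together, 2 of 6 peripheral genes (Mup5 and Mup3) were marked throughout, against 56.1% of all genes, and 2 of 6 (Mup4 and Mup6) were marked in none, against 35.2%. No central gene went unmarked in all 4 libraries. With peaks anywhere in the gene counted, the members marked were 4 in WT replicate 1 (68.8% of all genes), 4 in WT replicate 2 (60.0%), 4 in KO replicate 1 (68.3%) and 3 in KO replicate 2 (63.0%).

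Mup3, one of the liver-expressed members, was inside an H3K4me3 peak almost from end to end. The peak covered 100% of the 3842 bp gene in WT replicate 1, 88.0% in WT replicate 2, 100% in KO replicate 1 and 95.7% in KO replicate 2. The authors' fold over control was 19.54 and 23.5 in WT and 19.73 and 20.67 in KO, with −log10 q of 66.02 and 57.69, and 72.81 and 60.65. The genotypes overlapped in fold. The summit of this peak also lay inside the gene, 2191 and 1294 bp past the Mup3 start in WT and 2191 and 1641 bp in KO. The peak was 5028 and 5015 bp long in the replicate 1 libraries and 3438 and 3703 bp in the replicate 2 libraries, so its length went with the replicate and not with the genotype.

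Few genes of like length were covered to this extent. Among 1635 genes of 3 to 5 kb, Mup3 included, 10 were covered as much as Mup3 or more in WT replicate 1, 16 in WT replicate 2, 10 in KO replicate 1 and 18 in KO replicate 2. These are 0.61%, 0.98%, 0.61% and 1.1% of those genes. The median gene of that length with a peak at its start was covered over 27.8%, 22.1%, 27.7% and 24.6% of its length. For the 16 central Mup genes the medians were 63.7%, 35.2%, 48.0% and 21.9% in the same order.

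A further strong peak began just upstream of Mup3, at the start of the lncRNA Gm12909 (62088283 to 62098441), which runs the other way from a start 966 bp away from that of Mup3. Its fold was 22.17 in WT replicate 1, 37.21 in WT replicate 2, 21.06 in KO replicate 1 and 42.42 in KO replicate 2, higher than that over Mup3 in each of the 4 lists. Peaks covered 48.1%, 31.1%, 47.2% and 33.6% of the stretch from 1 to 15 kb upstream of Mup3. Reads from the 2 divergent starts cannot be assigned to either gene from the lists alone.

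Mup21 carried its strongest H3K4me3 peak inside the gene and not at its start. The summit lay 2040, 2007, 2051 and 2028 bp past the start in WT replicates 1 and 2 and KO replicates 1 and 2. Its fold was 14.58 and 9.30 in WT and 10.79 and 5.80 in KO, so that the genotypes overlapped, with KO lower than WT both in round 2 and in the libraries without a round. A peak over the start itself was called only in the replicate 1 libraries, with fold 9.09 in WT and 7.68 in KO and summits 58 and 61 bp past the start. This pattern, a start peak in both replicate 1 and neither replicate 2 library, was shared by 3.38% of all genes. Peaks covered 49.5% (WT) and 53.6% (KO) of the 3010 bp gene in replicate 1, but 6.74% (WT) and 4.85% (KO) in replicate 2.

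Mup5 had a small H3K4me3 peak near the gene end used as its start. Fold was 8.43 in WT replicate 1, 11.09 in WT replicate 2, 6.59 in KO replicate 1 and 4.61 in KO replicate 2, which put both KO libraries below both WT libraries. The peaks were 345, 377, 361 and 298 bp long and came to within 229, 264, 244 and 279 bp of it. With 2 libraries a genotype, exchanging labels cannot give a two-sided permutation p below 0.333, and folds are the authors' own values within each list, so no test was made. They exceeded 62.7% and 38.2% of the peaks in the WT lists, and 55.3% and 6.17% of those in the KO lists.

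Mup20, the darcin gene, had low start peaks. Within 1 kb inside the gene end used as its start, the highest fold was 3.79 in WT replicate 1, 3.92 in WT replicate 2 and 4.47 in KO replicate 1. The replicate 1 lists also held a peak 933 bp (WT, fold 6.71) and 929 bp (KO, fold 6.31) outside that end. In KO replicate 2 no peak lay in the gene and the nearest was 28.9 kb from its start. The replicate 1 lists held 9 peaks within the 42807 bp gene in WT and 11 in KO, the highest with fold 7.58 and 7.63 and both about 33 kb from the start. WT replicate 2 had 2 peaks in the gene.

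At the left edge, no H3K4me3 peak came near Mup4 or Mup6. From the Mup4 start the nearest peak was 96.2 kb away in WT replicate 1, 107.2 kb in WT replicate 2, 89.6 kb in KO replicate 1 and 107.4 kb in KO replicate 2. For Mup6 the distances were 63.2, 64.4, 62.6 and 64.6 kb. The stretch between the 2 genes and that between Mup4 and its outer neighbour Slc46a2 held 0 peaks in all 4 lists.

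**Figure D2:**
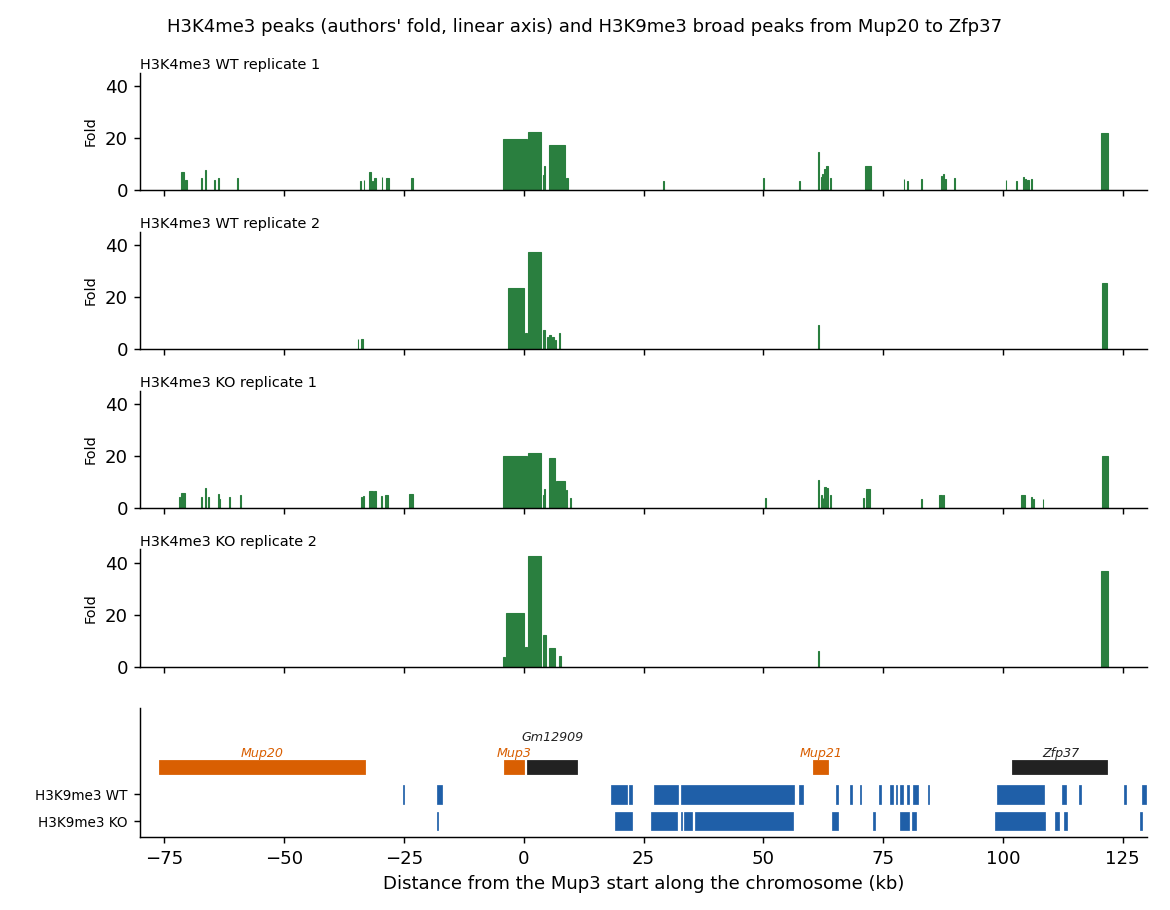
H3K4me3 peaks from Mup20 to Zfp37 as bars with the authors' fold as height, in the 4 libraries, above genes and H3K9me3 broad peaks in WT and KO, by distance from the Mup3 start in kb. Tall peaks stand at Mup3 and the adjoining start of Gm12909 (19.54 to 42.42) and at the start of Zfp37 (19.73 to 36.62). Mup21 has a narrow internal peak (5.80 to 14.58), and H3K9me3 fills much of the space between Mup3 and Mup21.

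No start peak was present in both KO and neither WT library at any of the 6 genes, against 0.110% of all genes, and none was present in both WT and neither KO library, against 0.0183%. Within replicate 1, 0 of 6 were lost in KO (1.59% of all genes) and 0 gained (0.740%). Within round 2, Mup20 was lost in KO (1 of 6, against 2 of 16 central genes and 0.192% of all genes) and 0 were gained (2.91%). That loss rested on 1 WT peak of fold 3.92, which was above the fold of only 1.18% of the peaks in that list.

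H3K27me3 was called at the starts of Mup4, Mup6 and Mup5 in WT replicate 1 at baseline, which is 3 of 6 where 21.7% of all genes were marked. The same 3 genes were marked in KO (22.4% of all genes) and in WT at 0 h (26.9%). None of the 6 was lost in KO (1.32% of all genes) or gained (0.909%). Central genes were marked in 15 of 16 cases in WT replicate 1, 11 in KO and 6 at 0 h. The 2 unregenerated WT libraries thus gave the same calls at the 6 peripheral genes and differed at central genes. They also differ in round, since only the 0 h library is labelled round 3.

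Mup4 and Mup6 shared an island at baseline. It ran from 59909001 to 60022000 in WT replicate 1 with fold 2.21 (95% interval 2.12 to 2.30), from 59912001 to 60022000 in KO with fold 2.11 (2.03 to 2.19), and from 59912001 to 60024000 at 0 h with fold 2.13 (2.05 to 2.20). Intervals here cover the counting error of ChIP and control reads only. The 3 islands were 113, 110 and 112 kb long and held 5884, 6103 and 5937 ChIP reads. Their fold was above that of 94.2%, 94.2% and 93.6% of the islands in the same lists. The outer end fell inside Slc46a2 in all 6 lists, covering 6.1 kb of that gene in WT replicate 1 and 3.1 to 4.1 kb in the others.

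**Figure D3:**
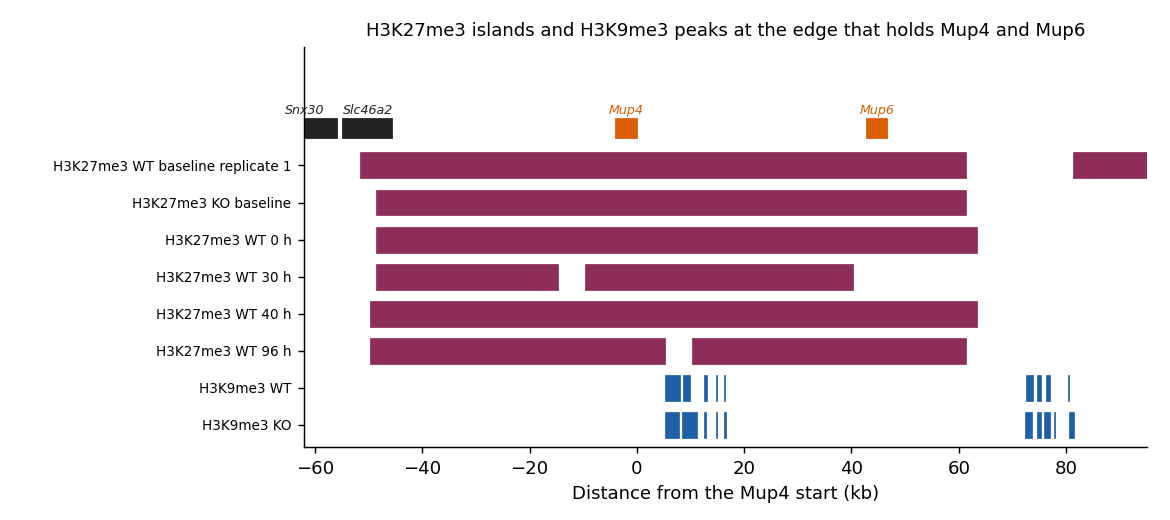
H3K27me3 islands (6 libraries) and H3K9me3 broad peaks (WT and KO) around Mup4 and Mup6, by distance from the Mup4 start in kb. The island that held both genes in WT replicate 1, KO, 0 h and 40 h was split at 30 and 96 h, and at 30 h it stopped 2.48 kb short of the Mup6 start.

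Over regeneration, Mup4 and Mup5 stayed marked by H3K27me3 at 0, 30, 40 and 96 h, as did 11.0% of all genes and 0 of 16 central genes. At 30 h the count was 2 of 6 (17.0% of all genes), at 40 h 3 of 6 (16.5%) and at 96 h 3 of 6 (24.1%). Mup6 was the gene not called at 30 h. A loss from 0 to 30 h was seen in 11.4% of all genes, and a loss at 30 h alone among the 4 times in 2.60%. No member was marked at 0 h and unmarked at 40 h (12.1% of all genes) or at 96 h (5.42%). With WT replicate 1 and KO added, Mup4 and Mup5 were marked in all 6 libraries (2 of 6, against 10.3% of all genes). Central genes were marked in 6, 0, 1 and 4 of 16 cases at 0, 30, 40 and 96 h.

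The left island was called in 2 pieces at 30 h. A split here means that a gap was longer than the 4000 bp allowed in island calling. A piece from 59912001 to 59946000 with fold 1.63 (1.52 to 1.74) left Mup4 outside, and a piece from 59951001 to 60001000 with fold 1.60 (1.51 to 1.70) held Mup4 and ended 2.48 kb before the Mup6 start. At 40 h the stretch was again called as 1 island, from 59911001 to 60024000, with fold 1.69 (1.63 to 1.76). At 96 h it was split at another place, between the 2 genes, with fold 2.25 (2.15 to 2.36) over Mup4 and 2.64 (2.51 to 2.78) over Mup6. The median fold of all islands was 1.58 at 0 h, 1.45 at 30 h, 1.45 at 40 h and 1.56 at 96 h. With 1 library a time, no spread between libraries can be set against these values, and the part of depth in the 30 h split was not tested.

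Mup5 lay inside a longer island. In WT replicate 1 and KO it had the same bounds, 61774001 to 61918000, and the same 7860 control reads, with 12485 ChIP reads in WT and 12411 in KO. The authors' fold, which scales for library size, was 2.76 (2.68 to 2.84) in WT and 2.46 (2.39 to 2.53) in KO, above 99.5% and 99.1% of the islands in those lists. The ratio of KO to WT was 0.891 (0.869 to 0.913). Over the 414 islands with equal bounds in both lists the median ratio was 1.009, with quartiles of 0.954 and 1.064, and 9.2% of islands had a lower ratio than that of Mup5. Another Mup cluster island among them, 60359001 to 60407000, had a lower ratio of 0.776 (0.737 to 0.817), with 0.5% of islands below it. A lower ratio was thus not particular to Mup5. With 1 library each, these ratios compare libraries and not genotypes.

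In regenerating WT liver the island over Mup5 changed its reach toward the central genes and kept its outer end. It began at 61576001 at 0 h, 61786001 at 30 h, 61700001 at 40 h and 61735001 at 96 h, and ended at 61924000, 61924000, 61924000 and 61919000. Its fold was 2.03 (1.99 to 2.07), 1.55 (1.5 to 1.59), 1.58 (1.54 to 1.62) and 2.37 (2.31 to 2.42). The 4 islands were 348, 138, 224 and 184 kb long, so the folds are not over the same region.

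**Figure D4:**
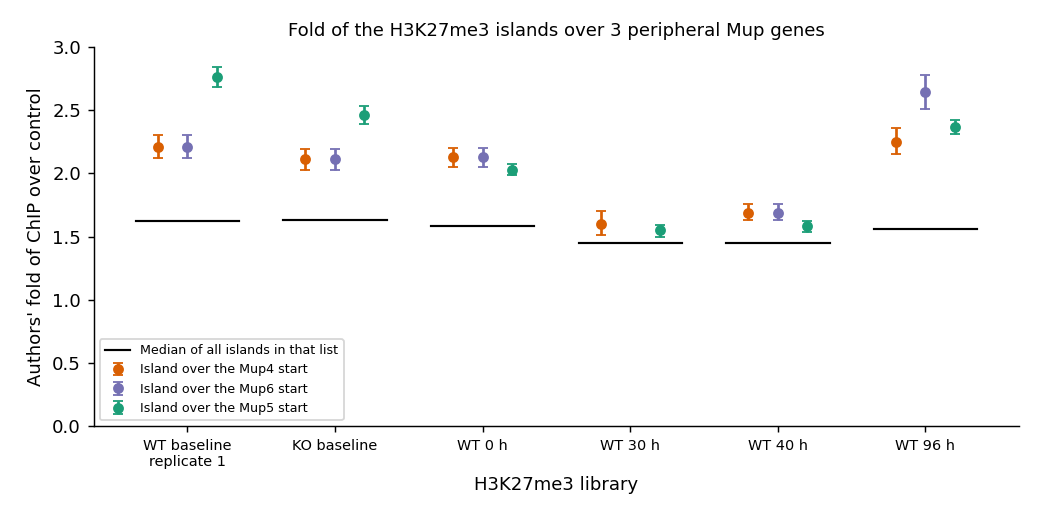
Fold of the H3K27me3 island over the Mup4, Mup6 and Mup5 starts in 6 libraries (points, with 95% counting intervals) and the median fold of all islands in each list (lines), on a linear axis from 0. Each point is above its list's median, and Mup6 has no point at 30 h because no island reached its start.

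Past the Mup5 island lay a stretch without H3K27me3 that held Mup20, Mup3 and Mup21 in every list. It measured 309 kb in WT replicate 1, 323 kb in KO, and 283, 314, 316 and 286 kb at 0, 30, 40 and 96 h. The next island began 76.2, 90.2, 56.2, 87.2, 89.2 and 54.2 kb beyond Mup21 in the same order. In all, 3 of the 6 genes were free of H3K27me3 at their starts in all 6 libraries, against 67.9% of all genes and 1 of 16 central genes.

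H3K4me3 in all 4 libraries together with H3K27me3 in all 6 was found at Mup5 alone of the 6 genes. The share was 1 of 6, against 1.87% of all genes and 0 of 16 central genes. The Mup5 start was chosen as the gene end with more H3K4me3, which favours this call. Starts were annotated for 17492 of 21887 genes, so the 1.87% is not a like background. With a −log10 q of 5 or more, Mup5 had H3K4me3 in 3 libraries. It had H3K4me3 in 0 when regions had to fill a set share of the window. The 2 marks came from separate libraries, so the lists do not say whether they lay on the same chromosomes or in the same cells.

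H3K9me3 broad peaks covered at least 10% of 0 of the 6 genes in WT (3.08% of all genes) and of 0 in KO (2.82%). Mup5 was the only member with any overlap (1 of 6 in both, against 21.1% of all genes in WT and 21.4% in KO). Peaks held 7.74% of Mup5 in WT and 6.35% in KO. In both genotypes the 2 peaks lay within the gene, with fold 3.75 and 3.31 in WT and 4.32 and 3.17 in KO. No member went from 10% or more in WT to none in KO (0.142% of all genes) or the reverse (0.0685%).

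H3K9me3 was instead found between the genes of the right edge. Of the 60.5 kb between Mup3 and Mup21, 55.4% was covered in WT and 51.6% in KO. Most of it was 1 broad peak, from 62120149 to 62143720 in WT (23.6 kb, fold 3.90) and from 62123160 to 62143536 in KO (20.4 kb, fold 4.04). Only 62 of 55692 broad peaks were longer in WT and 66 of 51642 in KO, and the median peak was 556 and 524 bp long. This domain ended 4.11 kb from Mup21 in WT and 4.30 kb in KO. Shorter peaks came closer to Mup21 from its outer side, to 1650 bp from its start in WT (fold 3.51) and 791 bp in KO (fold 3.57). Their −log10 q was 2.35 in WT and 2.43 in KO. Within 1 kb of the start, H3K9me3 was thus called at 0 of 6 members in WT (1.89% of all genes) and 1 of 6, Mup21, in KO (1.91%). Such a call in KO and not in WT was found in 0.475% of all genes and the reverse, seen at 0 members, in 0.452%.

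Other gaps between members held less H3K9me3. Coverage was 11.8% in WT and 15.1% in KO of the 42.8 kb between Mup4 and Mup6, where the peaks began 5.3 kb from the Mup4 start, and 4.4% and 0.8% of the 29.3 kb between Mup20 and Mup3. Between Mup5 and Mup20 peaks covered 15.4 kb in WT and 16.8 kb in KO out of 153.3 kb. Past Mup21, 21.1% and 21.3% of the 38.7 kb up to Zfp37 was covered. WT and KO each rest on 1 library.

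**Figure D5:**
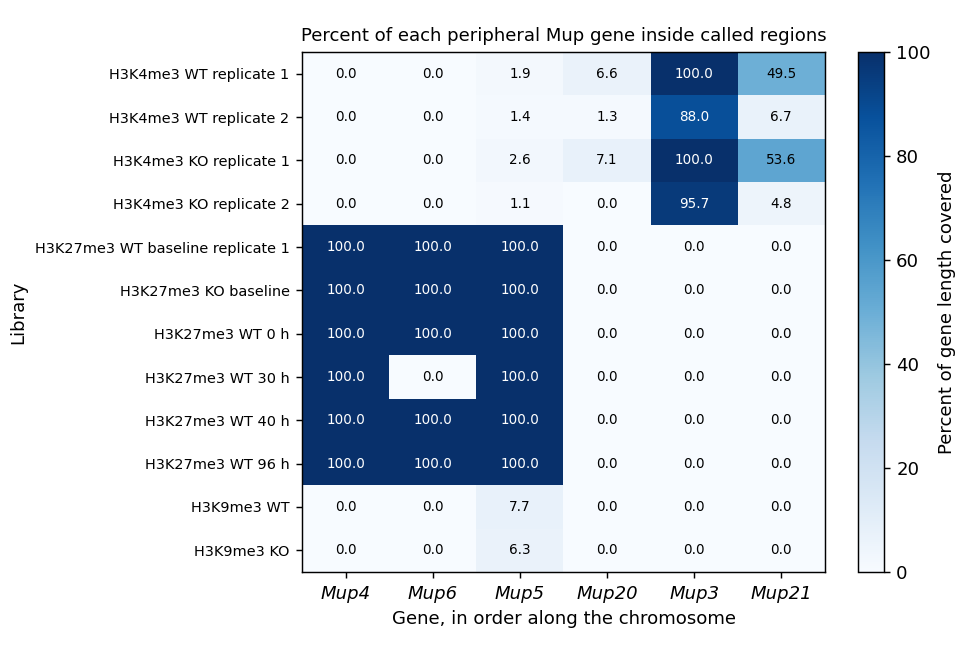
Percent of the length of each peripheral Mup gene (columns, in order along the chromosome) inside called regions in each of 12 libraries (rows). H3K4me3 covers 88.0% to 100% of Mup3 and none of Mup4 and Mup6, H3K27me3 covers Mup4, Mup6 and Mup5 whole except Mup6 at 30 h, and H3K9me3 appears only in Mup5.

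The neighbours outside the cluster showed where these settings end. Beyond Mup4, Slc46a2, a solute carrier gene, had H3K27me3 at its start in all 6 libraries and H3K4me3 in 0 of 4, as Mup4 did. Snx30 and Inip beyond it had H3K4me3 in all 4 and H3K27me3 in 0 of 6. Beyond Mup21, the zinc finger gene Zfp37 had H3K4me3 in all 4 libraries and H3K9me3 over 38.9% of its body in WT and 41.1% in KO. H3K27me3 reached its start at 0 h (fold 2.49) and 96 h (1.82) and in none of the other 4 libraries. Slc31a2 and Fkbp15 had H3K4me3 in all 4 libraries and H3K27me3 in 0 of 6.

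Over all 12 calls, the pattern of Mup3 was common and that of Mup20 rare. The 12 calls of Mup3 were shared by 9957 other genes, those of Mup4 by 1272, of Mup5 by 403, of Mup21 by 190, of Mup6 by 171 and of Mup20 by 12. Among genes with the same calls, likeness was taken as the mean absolute difference in percent of gene covered over the 12 libraries. Cited2 (0.28 percentage points) and Bola2 (0.29) were most like Mup3, Krt32 and Cxcl14 (0.83 each) most like Mup5, Pdxp and Slc12a3 (0.15 each) most like Mup20, and Slc7a2 (1.59) and Ciart (1.60) most like Mup21. For Mup4 and Mup6, 374 and 43 genes were tied at no difference.

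Most genes known to control Mup or sex-biased liver genes had H3K4me3 at their starts. Of 17 such genes, 16 were marked in all 4 libraries, against 56.1% of all genes. The glucocorticoid receptor gene Nr3c1 was marked in 0 of 4. Nr3c1 still had H3K4me3 peaks within the gene, over 16.4% and 7.3% of its length in WT and 16.5% and 7.2% in KO. H3K27me3 was called at the start of Cux2, a female-biased repressor of male liver genes, in 5 of 6 libraries and not at 30 h. At 30 h H3K27me3 still covered 38.5% of the gene. It was called at the start of 0 of the other 16, where 16.5% to 26.9% of all genes were marked in a library. Zfp457 had H3K27me3 over 37.6% of its body at 40 h without a call at its start. The zinc finger gene Rsl1, a regulator of sex-biased liver genes, had H3K9me3 over 13.5% of its body in WT and 0% in KO. Its relative Zfp457 had H3K9me3 over 33.5% in WT and 34.7% in KO.

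Other lipocalin genes, the wider family of the Mup proteins, were mostly without H3K4me3. Of 22 found in the gene table, 5, 4, 5 and 4 were marked in WT replicates 1 and 2 and KO replicates 1 and 2. The shares of all genes were 63.3%, 56.8%, 62.4% and 59.5% in the same order. The retinol carrier Rbp4, Apom and Ambp were among the 4 marked in all libraries, and Orm3 was marked in the replicate 1 libraries only, like the Mup21 start. Orm genes are close copies of each other, so their calls are uncertain. H3K27me3 was at 1 in WT replicate 1 and 1 in KO. It was at 9 at 0 h, 5 at 30 h, 8 at 40 h and 5 at 96 h. The shares of all genes were 21.7%, 22.4%, 26.9%, 17.0%, 16.5% and 24.1% in the same order. Lcn4 was marked in all 6 libraries, as Mup4 and Mup5 were. The libraries from 0 to 96 h are those of round 3.

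Several facts of the whole data set bear on these calls. The H3K4me3 lists of replicate 1 held 72177 and 73431 peaks over 45.5 and 44.9 Mb, and those of replicate 2 held 25714 and 27006 over 21.4 and 25.3 Mb, so the start peak of Mup21 and the extra peaks in Mup20 came from the longer lists. Hepatocyte markers had H3K4me3 in 5 or 6 of 6 cases in every library and no H3K27me3. Of 4 macrophage markers, H3K4me3 marked 1 in WT replicate 1, 0 in KO replicate 1 and 4 in both libraries of round 2, and their part in the Mup calls was not tested. The round 2 H3K4me3 libraries carry an antibody tag naming H3K9me3, and were grouped by title. Of their length, 95.8% in WT and 92.1% in KO lay in replicate 1 peaks. The Uhrf1 start had H3K4me3 in all 4 libraries and neither other mark, which does not check the knockout, since a promoter mark can remain.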

How the data were processed

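ChIP-seq regions from 12 libraries were used, and the 3 inputs served only in the authors' region calling. Per the submitters' processing notes, the authors used FastQC 0.11.5, Trimmomatic, BWA, Picard, MACS2 and SICER on GRCm38.p4 or mm10, with versions and settings otherwise not given in the sources used here. The authors called regions in each library. The deposited MACS2 lists (H3K4me3 narrow, H3K9me3 narrow and broad) give a score, a fold enrichment ratio, and p-value and q-value as −log10. The deposited SICER islands (H3K27me3, windows of 1000 bp, gaps of 4000 bp) give raw ChIP and control counts, a p-value, the authors' library-scaled fold and the false discovery rate (FDR).

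Islands with FDR of 0.01 or below were used. Genes came from RefSeq (GRCm38.p6). Starts were annotated for 17492 genes. The gene end with more H3K4me3 stood in for 2815, and both ends for 1580. A start was marked when its 1 kb flanks touched a region, and H3K9me3 needed 10% of the gene. All 6 Mup genes were described in every library, and central genes by counts. Other genes named were the nearest neighbours, up to 5 of each list with a strong region or calls that differed between libraries (Nr3c1, Rbp4, Apom, Ambp and Lcn4 after their values were seen), and those most like a member in coverage. The members, gene lists and alternatives were chosen with earlier results of these data known. No tests between groups were made, since lists hold calls and groups hold 1 or 2 libraries. Depth per library is unknown beyond the islands, which held 12764569 to 21738935 ChIP reads. Fold intervals are 95% intervals from ChIP and control counts. Alternatives changed thresholds, windows, start points and libraries. The software was Biopython 1.88, scipy 1.17.1, pandas 2.3.3, numpy 2.4.6 and matplotlib 3.10.9 under Python 3.11.15. The overlap code was tested on simulated lists.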

Additional observations from a re-analysis of the deposited data

Results flagged for a closer look

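The narrow H3K9me3 lists, which the comparisons above did not use, held peaks inside Mup5 in both genotypes. In WT 2 narrow peaks covered 2.65% of the gene, the higher with fold 5.02, and in KO 1 narrow peak covered 3.40% with fold 6.62. These lists held 0 peaks in the other 5 genes.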

How the results depend on the processing

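The count of genes marked by H3K4me3 in all 4 libraries was 2. It became 1 (Mup3) with peaks limited to a −log10 q of 5 or more and 1 when regions had to fill at least 50% of the window, and ran from 2 to 3 with any library left out. Genes gained or lost in KO numbered 0, with 1 (Mup20) in the round 2 libraries alone and 0 to 1 with any library left out (1 without KO replicate 1). The 3 genes marked by H3K27me3 in all baseline libraries stayed 3 under every alternative run. The count of 2 genes marked at all 4 times of regeneration became 0 with a fold of 2 or more required, since no island over a member reached it at 30 or 40 h. The count of 0 genes with H3K9me3 became 1 (Mup5) with any overlap and 2 (Mup21 in both genotypes, Mup5 in WT only) with 5 kb added on either side of the gene. It became 1 (Mup21, in KO) with a peak within 1 kb of the start in place of 10% of the gene, an alternative added after seeing the data. Taking both gene ends for Mup5 and Mup20, also added then, changed none of the H3K4me3 and H3K27me3 counts. Of 108 values for single genes, each a count of marked libraries, 8 were classed as moved and 100 as the same. The latter class took in small shifts. With a fold of 2 or more, libraries with H3K27me3 fell from 6 to 4 at Mup4 and Mup5 and from 5 to 4 at Mup6. With a −log10 q of 5 or more, libraries with H3K4me3 fell from 4 to 3 at Mup5 and from 3 to 2 at Mup20.

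No paired analysis was possible because no result comes from a test and round 2 is the only round that the labels give to H3K4me3 libraries of both genotypes. Counts within round 2 and within the libraries without a round stand in the report. Total depth and the handling of reads that fit several Mup copies limit every call, and a missing call does not show that a mark was absent.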
